A study of Mus musculus with 18 samples.

Results

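Each of the 18 liver arrays carries a replicate number from 1 to 6 in its title, and within every diet the arrays numbered 4 to 6 were set against those numbered 1 to 3. All 18 of the 18 arrays enter, 9 numbered 4 to 6 and 9 numbered 1 to 3, and the only thing used to assign an array to a set was its number. The mice were male C57BL/6J, a common inbred strain, which arrived at 5 weeks of age and were fed 1 of 3 diets for 20 weeks. The diets were AIN93G, a purified control diet, a Western-style diet, and that Western-style diet with 0.05% quercetin, a plant flavonol. In the Western-style diet fat supplied 39.9% and sucrose 34.0% of the energy, and it held 0.15% cholesterol, 20% butter and 1% soy oil. Each diet has 3 arrays of either set, each array carries the total liver RNA of 1 mouse per the labels, and all the mice were housed 3 to a cage with darkness from 8 to 20 h. A meaning for the numbers, the cage of each mouse, the hour of killing and the days of RNA extraction and hybridisation were not given by the labels, so none of these could be told apart from the number. The number sets were chosen with earlier results of these data known. The p-values below set a difference against the spread between these samples only, with each sample taken as independent. They do not allow for mice that shared a cage or a day of handling.

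The liver keeps time with a circadian clock. The factors CLOCK and BMAL1, the second encoded by Arntl, activate genes through E-boxes, and the products of the Per and Cry genes then repress them. The REV-ERB proteins, encoded by Nr1d1 and Nr1d2, repress Arntl. Output factors such as DBP, TEF and HLF carry the rhythm to enzymes of metabolism through D-boxes. The unfolded protein response is the programme by which a cell with a loaded endoplasmic reticulum makes more chaperones and degradation machinery. ATF6 and XBP1 switch on many of its genes through the ER stress response element, a CCAAT box spaced 9 bases from CCACG. Both programmes are known to follow feeding in mouse liver, and the gene lists described here include both.

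The promoters below are shown because these elements stand in genes whose level differed between the number sets. They were taken from RefSeq (build GRCm38.p6) and run from 250 bases before to 50 bases after the start site, 5′ to 3′ on the strand of the gene. In the first 5 the capitals mark every match, on either strand, to CCAAT followed after 9 bases of any kind by CCACG. They belong to the chaperone BiP (Hspa5), the chaperone GRP94 (Hsp90b1), the disulfide isomerase Pdia6, the secreted ER protein Creld2 and the ubiquitin ligase HRD1 (Syvn1).
Hspa5 (chr2:34771840-34772139, forward strand): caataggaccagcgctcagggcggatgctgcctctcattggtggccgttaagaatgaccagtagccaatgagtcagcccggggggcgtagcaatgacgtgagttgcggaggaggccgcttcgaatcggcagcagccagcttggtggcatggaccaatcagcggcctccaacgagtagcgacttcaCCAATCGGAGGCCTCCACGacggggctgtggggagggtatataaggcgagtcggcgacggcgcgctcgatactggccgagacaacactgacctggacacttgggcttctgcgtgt
Hsp90b1 (chr10:86705395-86705694, reverse strand): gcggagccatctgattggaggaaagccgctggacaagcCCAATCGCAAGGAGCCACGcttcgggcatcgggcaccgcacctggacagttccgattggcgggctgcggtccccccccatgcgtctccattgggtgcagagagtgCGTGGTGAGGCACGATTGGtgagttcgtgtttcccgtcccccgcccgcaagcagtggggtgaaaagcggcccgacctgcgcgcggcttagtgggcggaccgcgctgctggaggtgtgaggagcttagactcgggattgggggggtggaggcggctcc
Pdia6 (chr12:17266339-17266638, forward strand): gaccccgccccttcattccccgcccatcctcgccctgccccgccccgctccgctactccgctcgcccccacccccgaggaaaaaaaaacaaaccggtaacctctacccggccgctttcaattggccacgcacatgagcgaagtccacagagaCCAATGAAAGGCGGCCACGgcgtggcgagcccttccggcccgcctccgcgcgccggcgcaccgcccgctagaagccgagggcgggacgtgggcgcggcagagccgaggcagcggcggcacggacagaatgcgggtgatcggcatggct
Creld2 (chr15:88819396-88819695, forward strand): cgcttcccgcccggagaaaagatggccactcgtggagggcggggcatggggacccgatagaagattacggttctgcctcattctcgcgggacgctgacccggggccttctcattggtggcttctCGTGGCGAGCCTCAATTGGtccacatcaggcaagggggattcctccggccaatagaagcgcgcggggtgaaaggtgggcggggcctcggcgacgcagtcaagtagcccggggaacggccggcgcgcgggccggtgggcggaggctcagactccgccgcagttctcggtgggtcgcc
Syvn1 (chr19:6046326-6046625, forward strand): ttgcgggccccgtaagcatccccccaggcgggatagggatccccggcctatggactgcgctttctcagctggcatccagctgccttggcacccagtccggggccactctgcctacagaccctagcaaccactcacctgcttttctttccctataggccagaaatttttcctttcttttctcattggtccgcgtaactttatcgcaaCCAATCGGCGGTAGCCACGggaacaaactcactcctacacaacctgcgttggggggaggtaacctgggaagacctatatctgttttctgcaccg

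The next windows belong to Per3, a member of the clock's repressor family, to Slc1a2, a glutamate transporter of pericentral hepatocytes, and to Ciart, which encodes the clock repressor CHRONO. In Per3 and Slc1a2 the capitals mark matches to the D-box letters TTATGTAA or TTATGCAA on either strand. In Ciart they mark the E-box letters CACGTG.
Per3 (chr4:151044616-151044915, reverse strand): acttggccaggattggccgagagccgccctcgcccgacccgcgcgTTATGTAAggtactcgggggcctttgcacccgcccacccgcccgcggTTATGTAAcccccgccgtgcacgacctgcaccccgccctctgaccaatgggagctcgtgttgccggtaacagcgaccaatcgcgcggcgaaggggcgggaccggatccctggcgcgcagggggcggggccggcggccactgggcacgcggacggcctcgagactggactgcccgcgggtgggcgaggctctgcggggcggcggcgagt
Slc1a2 (chr2:102706188-102706487, forward strand): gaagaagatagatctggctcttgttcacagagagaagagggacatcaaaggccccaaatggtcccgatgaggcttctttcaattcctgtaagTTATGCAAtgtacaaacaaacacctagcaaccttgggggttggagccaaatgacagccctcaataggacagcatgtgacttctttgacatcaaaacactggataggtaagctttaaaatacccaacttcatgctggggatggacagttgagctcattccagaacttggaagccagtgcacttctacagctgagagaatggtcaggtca
Ciart (chr3:95882179-95882478, reverse strand): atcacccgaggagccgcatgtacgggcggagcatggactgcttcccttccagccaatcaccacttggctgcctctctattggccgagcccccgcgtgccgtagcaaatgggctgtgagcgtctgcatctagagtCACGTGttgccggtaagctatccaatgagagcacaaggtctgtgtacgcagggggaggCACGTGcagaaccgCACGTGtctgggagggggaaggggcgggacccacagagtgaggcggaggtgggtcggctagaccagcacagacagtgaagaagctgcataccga

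A level below is log2(deposited intensity + 16) after quantile normalization, with 1 probe set per gene. Control arrays 4 and 5 differed by an SD of 0.0426 over 1650 bright genes, against at least 0.156 for any other of the 153 pairs, and were averaged into 1 sample. That left 17 samples, 8 numbered 4 to 6 and 9 numbered 1 to 3, with only 2 numbered 4 to 6 on the control diet. The number sets separated on the second principal component, which held 13.8% of the variance. Its scores ran from -15.1 to -7.29 in the samples numbered 4 to 6 and from 0.334 to 21.3 in those numbered 1 to 3, with no overlap. The difference of -19.7 had an exact permutation p of 0.00025, two-sided within diets, the smallest that the 4000 arrangements can give, and an adjusted p of 0.00225 over 9 array measures. Because the sets were chosen with earlier results of these data known, this p describes the separation and is not an independent test of it. The first component held 26.5% of the variance and did not pass (exact p = 0.266, difference -4.63). Nor did array brightness (exact p = 0.615), the actin and Gapdh 3′ to 5′ ratios (0.159 and 0.578) or the 18S signal (0.448). Each of these and the first component had an adjusted p of 0.692. The log2 actin ratio, in which a higher value means less signal from the 5′ end, ran from 0.497 to 0.707 in numbers 4 to 6 and from 0.392 to 0.770 in numbers 1 to 3.

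**Figure D1:**
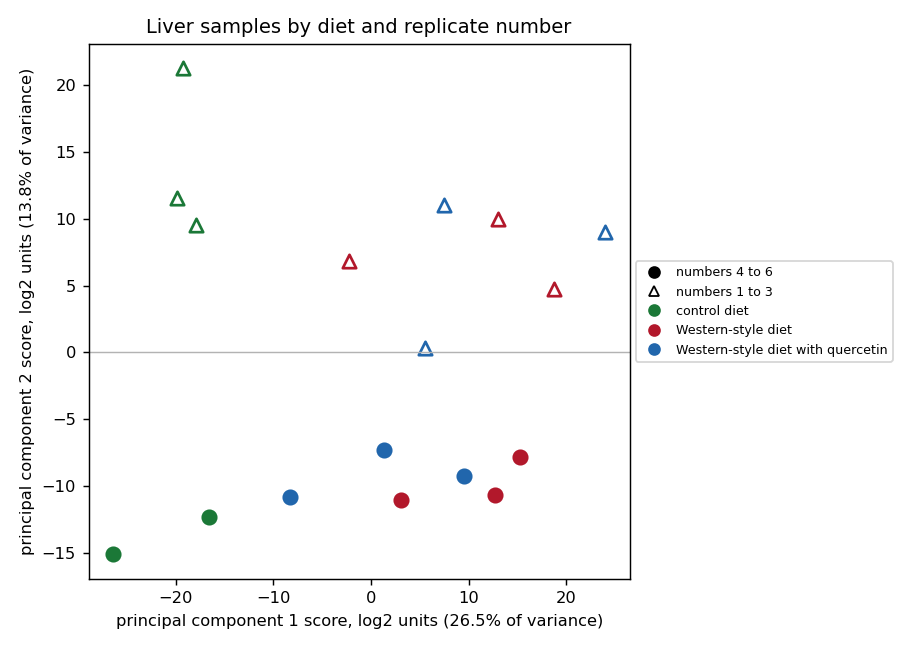
Scores of the 17 liver samples on the first and second principal components of the log2 levels, in log2 units, with filled circles for numbers 4 to 6, open triangles for numbers 1 to 3 and colour for diet. All 8 samples numbered 4 to 6 lie at or below -7.29 on the vertical axis and all 9 numbered 1 to 3 at or above 0.334.

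The sets were compared with limma, with diet as a covariate and Benjamini-Hochberg adjustment over the 13645 genes tested. A gene was called higher or lower in numbers 4 to 6 at an adjusted p under 0.05. This gave 890 genes, 6.52% of those tested, of which 487 (3.57%) were higher and 403 (2.95%) lower. With array medians centred in place of quantile normalization the split was 645 higher and 177 lower. Without control sample 4-5 the count was 536, and without control 6 it was 561. Of the called genes 104 differed by at least 1.5-fold, 56 higher and 48 lower, and 12 were at least 2-fold higher and 6 at least 2-fold lower. The median log2 difference of all genes was -0.00432, and the 95% interval of a gene reached a median of 0.185 to either side. In 115 genes (0.843%) no sample of one set overlapped the other, 64 with the samples numbered 4 to 6 on top and 51 with them below.

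The increases were led by Usp2, a deubiquitinase under clock control, which had lowest, median and highest levels of 7.63, 8.05 and 8.60 in numbers 4 to 6 and 5.11, 6.19 and 7.40 in numbers 1 to 3. Every sample numbered 4 to 6 was above every one numbered 1 to 3, and the log2 difference was 1.87 ± 0.24 (SE, adjusted p 0.000298), or 3.66-fold. Cyp7a1, the rate-limiting enzyme of bile acid synthesis, ran at 9.19, 9.94 and 10.59 in numbers 4 to 6, against 7.06, 8.28 and 9.10 in numbers 1 to 3. Again the sets did not overlap, and the difference was 1.83 ± 0.21 (adjusted p 0.000124), or 3.55-fold. Upp2, a uridine phosphorylase, had levels of 10.12, 10.61 and 11.06 in numbers 4 to 6 and 7.96, 8.99 and 9.52 in numbers 1 to 3. Its difference of 1.67 ± 0.15 had an adjusted p of 6.15e-05 and was close to even over the diets, at 1.71, 1.59 and 1.71 on the control diet, the Western-style diet and the Western-style diet with quercetin.

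Acot3, a peroxisomal acyl-CoA thioesterase, differed by 1.62 ± 0.24 (adjusted p 0.000843), with levels of 7.42, 8.23 and 9.63 in numbers 4 to 6 and 6.07, 6.75 and 7.75 in numbers 1 to 3, which overlapped. It was read by 1 probe set, whose name marks it as shared between transcripts or genes. Gpcpd1, a glycerophosphodiesterase of choline metabolism, had 9.45, 9.76 and 10.49 in numbers 4 to 6 and 7.77, 8.64 and 8.97 in numbers 1 to 3, with no overlap and a difference of 1.29 ± 0.16 (adjusted p 0.000266). Nmrk1, a kinase of the nicotinamide riboside route to NAD, rose by 1.14 ± 0.14 (adjusted p 0.000162) and Dclre1a, a DNA crosslink repair nuclease, by 1.11 ± 0.11 (adjusted p 6.15e-05), and neither overlapped between the sets. Averaged over all probe sets of the gene, dim ones included, Dclre1a differed by 0.43. Nrg4, a growth factor of the epidermal growth factor family, did not overlap either (1.06 ± 0.12, adjusted p 0.000118). Alas1, the rate-limiting enzyme of haem synthesis in liver, was 1.96-fold higher (adjusted p 0.00325). The other genes among the 15 largest increases were Nrep (1.01, adjusted p 0.00407), the potassium channel Kcnk5 (0.85, adjusted p 0.00325) and the clock output genes Ciart, Dbp, Noct and Wee1 given below.

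The decreases were led by Tubb2a, a beta-tubulin, with levels of 8.20, 10.32 and 10.83 in numbers 4 to 6 and 10.87, 11.29 and 11.89 in numbers 1 to 3. No sample overlapped, and the difference was -1.35 ± 0.22 (adjusted p 0.0014). Chka, the choline kinase that opens phosphatidylcholine synthesis, had 6.34, 7.03 and 7.37 in numbers 4 to 6 and 7.65, 8.37 and 8.86 in numbers 1 to 3, again apart, and fell by 1.21 ± 0.19 (adjusted p 0.0012). Insig2, an ER protein that holds back SREBP processing, ran at 10.07, 10.40 and 10.70 in numbers 4 to 6 and 10.84, 11.22 and 11.61 in numbers 1 to 3 (-0.90 ± 0.11, adjusted p 0.00022). It did not overlap either. Tubb4b, a second beta-tubulin, differed by -0.94 ± 0.10 (adjusted p 0.000118) on its brightest probe set, with 3 of its 5 probe sets lower and 2 higher. Elovl3, a fatty acid elongase, differed by -0.87 ± 0.21 (adjusted p 0.0192), and Cldn1, a tight junction protein, by -0.85 ± 0.17 (adjusted p 0.00727). Gldc, the glycine decarboxylase, differed by -0.79 ± 0.13 (adjusted p 0.0014), and Slc30a10, a manganese exporter, by -0.79 ± 0.15 (adjusted p 0.00579). Clpx, a mitochondrial protease subunit, fell on its brightest probe set (-0.87, adjusted p 0.00439) but its other probe set was positive. Spon2 (-1.07, adjusted p 0.0015 on its brightest probe set), Dtx4 (-0.84, adjusted p 0.00172), Ly6d (-1.09, adjusted p 0.0401), Tnfrsf12a (-0.92, adjusted p 0.042), Manf and Creld2 complete the 15 largest. The calls of Ly6d and Tnfrsf12a were lost without any 1 of 13 and 12 of the samples, with adjusted p up to 0.0771 without Western 6 and 0.0815 without Western 3. Averaged over all probe sets of each gene, the difference was -0.76 for Chka, -0.57 for Spon2 and -0.36 for Cldn1, all still called, and -0.22 for Tubb4b (adjusted p 0.0717), -0.36 for Clpx (adjusted p 0.199) and -0.79 for Tnfrsf12a (adjusted p 0.0940), not called. Without probe sets whose names mark them as shared between transcripts or genes, Tubb2a stood at -0.54 (adjusted p 0.00292).

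**Figure D2:**
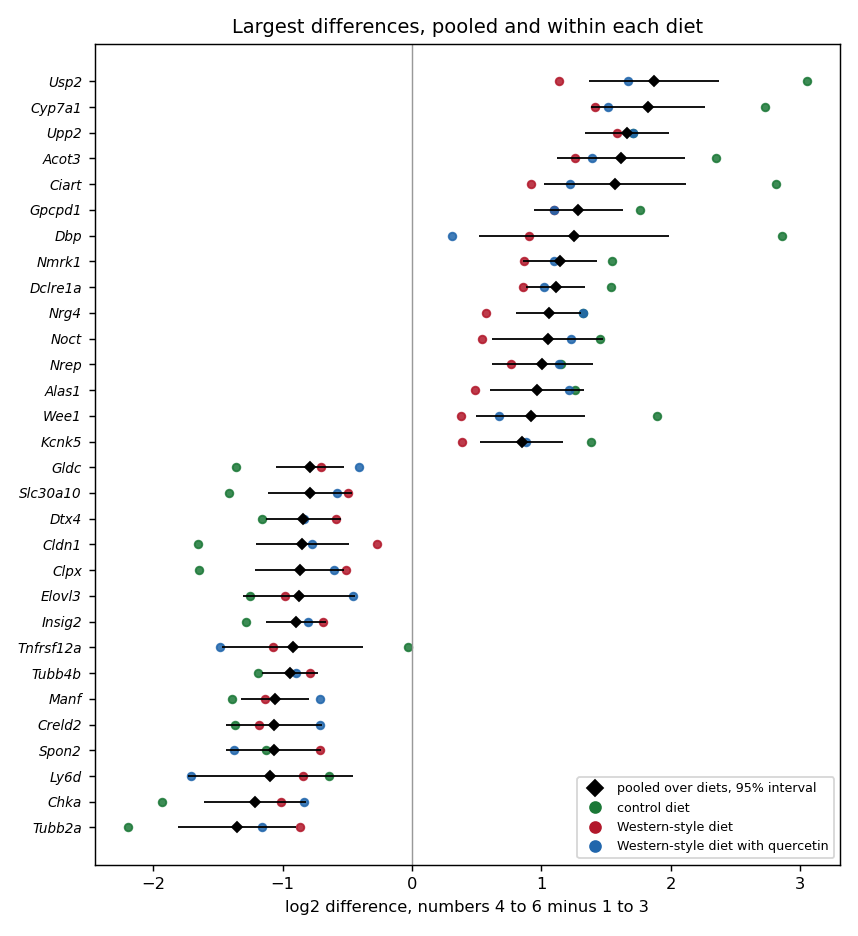
Log2 difference, numbers 4 to 6 minus numbers 1 to 3, of the 15 largest increases (upper rows) and the 15 largest decreases (lower rows), with black diamonds and 95% intervals pooled over diets and coloured points within each diet. Only called genes with the same sign in all 3 diets could enter, so the choice itself puts every point on the side of its diamond. Upp2 has its within-diet values closest together, while Dbp ranges from 0.31 to 2.86.

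The difference was then taken within each diet, which share no samples with each other. On the control diet 289 genes (2.12%) were called, on the Western-style diet 6 (0.044%) and on the Western-style diet with quercetin 76 (0.557%), with 2 or 3 samples against 3. Leaving out 1 sample gave 40 to 316 genes on the control diet (lowest without control 6), 0 to 8 on the Western-style diet and 15 to 103 with quercetin (lowest without quercetin sample 4). At an unadjusted p under 0.05 there were 2012, 1241 and 1878. Of the 890 genes called over all diets, 889 (99.9%) had the same sign in the 3 diets, against 41% of all genes tested, and the pooled call itself favours such genes. Their median absolute log2 difference was 0.409 on the control diet, 0.300 on the Western-style diet and 0.332 with quercetin, where all genes had 0.152, 0.118 and 0.139. Across all 13645 genes, which are not independent replicates, the differences of the control and Western-style diets had a Pearson r of 0.413. Between the control diet and the diet with quercetin r was 0.288, and between the Western-style diets 0.323.

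Of the 12 core clock genes tested, 3 were called higher (Per2, Per3 and Cry2) and 3 lower (Clock, Arntl and Nr1d1), against 3.57% and 2.95% of all genes. All gene lists were chosen with earlier results of these data known, so these shares describe the lists and do not test them. The repressor Per2 had levels of 7.05, 7.42 and 7.60 in numbers 4 to 6 and 5.88, 6.67 and 7.48 in numbers 1 to 3. The sets overlapped through Western-style samples numbered 1 to 3, and the difference was 0.72 ± 0.18 (adjusted p 0.0234), at 1.30, 0.09 and 0.88 on the control, Western-style and quercetin diets. Per3 differed by 0.58 ± 0.14 (adjusted p 0.0222) and Cry2 by 0.49 ± 0.12 (adjusted p 0.0264). The activator Clock ran at 6.73, 6.94 and 7.18 in numbers 4 to 6 and 7.17, 7.38 and 7.67 in numbers 1 to 3, which overlapped only at 7.18 and 7.17. Its difference was -0.45 ± 0.09 (adjusted p 0.00534), with 3 of its 4 probe sets lower. Arntl differed by -0.65 ± 0.17 (adjusted p 0.03) and the repressor Nr1d1 by -0.56 ± 0.17 (adjusted p 0.0497).

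Among the clock genes that did not pass, Per1 stood at 0.36 ± 0.13 (adjusted p 0.121), Nr1d2 at 0.33 ± 0.10 (adjusted p 0.0726) and Cry1 at 0.33 ± 0.19 (adjusted p 0.346). Cry1 had within-diet differences of -0.61, 0.29 and 1.13 on the control, Western-style and quercetin diets. Its interaction with diet did not pass (adjusted p 0.0685). The core clock counts moved with the samples used. In the Western-style groups alone no core clock gene was called in either direction, in the control and quercetin groups 1 was higher and 1 lower, and in the control and Western-style groups 1 was higher and 2 lower. Without control sample 4-5 or without control 6, no core clock gene was called higher and 1 was called lower. Without control 3, Western 6 or quercetin sample 5, 1 was likewise called lower. With the actin ratio as a covariate 3 were called higher and 1 lower. In the fit over all samples, Nr1d1 lost its call without any 1 of 13 samples (adjusted p up to 0.0914, without quercetin sample 2) and Arntl without any 1 of 6 (up to 0.0737, without control sample 4-5). Clock kept its call without each of the 17 samples in turn. Averaged over all their probe sets, Clock differed by -0.26 (adjusted p 0.0356) and Arntl by -0.42 (adjusted p 0.0235).

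Of 14 clock output genes tested, 9 were higher and 1 (Tars) lower, against 3.57% and 2.95% of all genes, and their median log2 difference was 0.651, against -0.00432 for all genes. This list was chosen with earlier results of these data known, so its share is a description and not a test. Without any 1 sample, 8 or 9 were called higher. In the Western-style groups alone 5 were, in the control and Western-style groups 5 and in the control and quercetin groups 8. Within single diets 8, 0 and 3 were called higher on the control, Western-style and quercetin diets, with fewer samples in each. Among the D-box binding factors, Hlf had levels of 7.33, 7.49 and 7.97 in numbers 4 to 6 and 6.62, 6.92 and 7.17 in numbers 1 to 3, with no overlap and a difference of 0.65 ± 0.08 (adjusted p 0.00022). Tef differed by 0.65 ± 0.12 (adjusted p 0.00439), and by 0.38 averaged over its probe sets. Dbp ran at 9.01, 9.41 and 10.04 in numbers 4 to 6 and 6.40, 8.45 and 9.31 in numbers 1 to 3. The sets overlapped, and the difference of 1.25 ± 0.35 (adjusted p 0.0408) came with 2.86, 0.91 and 0.31 on the control, Western-style and quercetin diets. Its call was lost without any 1 of 10 samples, with adjusted p up to 0.103 without control sample 4-5, and on the mean of its probe sets (0.0600). Nfil3, which represses at D-boxes, stood at -0.44 ± 0.14 and did not pass (adjusted p 0.0668).

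Ciart, whose promoter with 3 E-boxes is printed above, had levels of 5.27, 5.89 and 7.30 in numbers 4 to 6 and 4.13, 4.47 and 5.30 in numbers 1 to 3. The sets overlapped by 1 quercetin sample on either side, at 5.27 and 5.30, and the difference was 1.57 ± 0.26 (adjusted p 0.00182), at 2.81, 0.92 and 1.22 on the control, Western-style and quercetin diets. Noct, or nocturnin, which is known to cycle in liver, was 2.07-fold higher (1.05, adjusted p 0.00534), and the cell cycle kinase Wee1 was 1.89-fold higher (0.92, adjusted p 0.0115). Lonrf3 was higher by 0.58 ± 0.10 (adjusted p 0.00325) on its brightest probe set, and by 0.35 on the mean of its probe sets, not called (adjusted p 0.0552). Tars, the threonyl-tRNA synthetase, ran the other way, at 8.57, 8.74 and 8.92 in numbers 4 to 6 and 9.17, 9.37 and 9.99 in numbers 1 to 3, with no overlap and a difference of -0.78 ± 0.10 (adjusted p 0.000354). Bhlhe40, a repressor at E-boxes, stood at 0.33 ± 0.16 and did not pass (adjusted p 0.234).

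**Figure D3:**
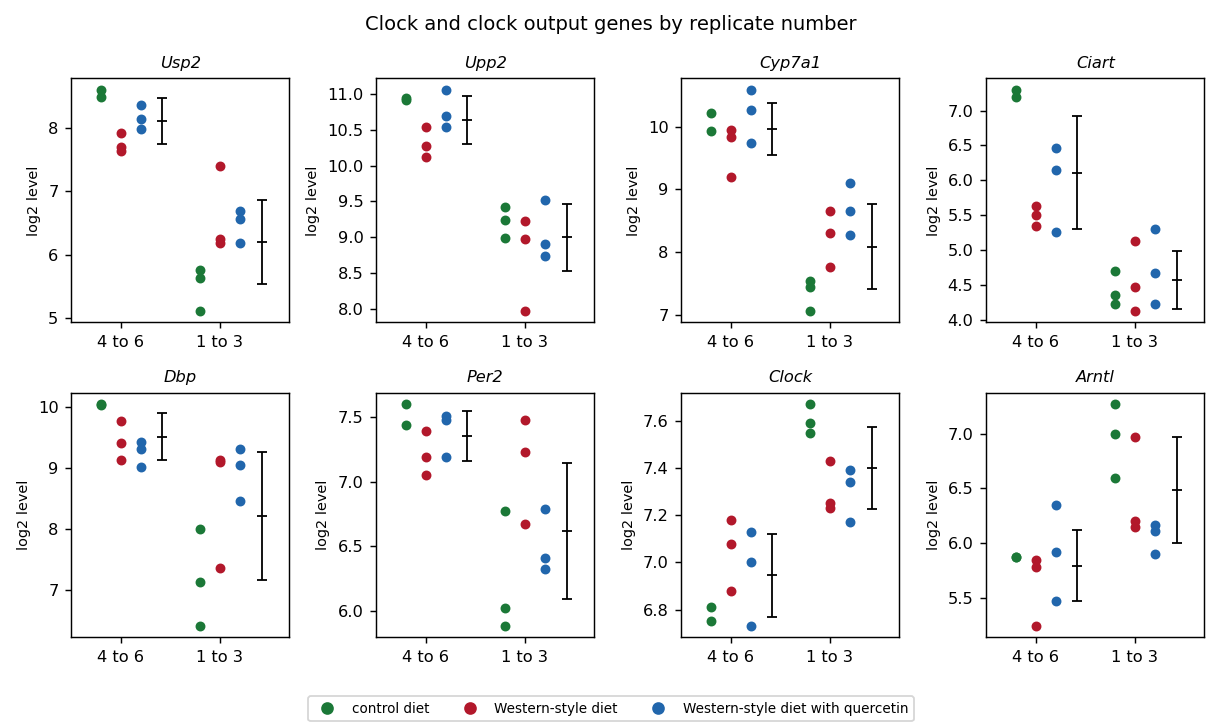
Log2 level of 8 genes in every sample, numbers 4 to 6 on the left and numbers 1 to 3 on the right of each panel, coloured by diet, with the mean and SD of each set in black (n = 8 and n = 9). Usp2, Upp2 and Cyp7a1 do not overlap between the sets, Clock and Arntl are lower in numbers 4 to 6, and Dbp spreads most in numbers 1 to 3.

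D-box letters stood in the promoter windows of 161 tested genes, 1.47% of the 10981 tested genes that have a window and 1.66% of all 32851 windows. Of those 161, 16 (9.94%) were called higher and 2 (1.24%) lower, beside 3.57% and 2.95% of all genes tested, with or without a window. The shares among only the genes with a window were not taken. They include Per3 and Slc1a2, the second of which ran at 8.47, 8.65 and 9.19 in numbers 4 to 6 and 7.58, 8.07 and 8.50 in numbers 1 to 3 (0.76 ± 0.13, adjusted p 0.0025, and 0.31 averaged over its probe sets). No D-box letters stood in the windows of the clock output list. E-box letters CACGTG stood in 1243 tested genes, 11.3% of those with a window, and in 7.15% of all windows. Of these 1243 genes 4.75% were higher and 3.38% lower. The letters AGGTCA, the core that REV-ERB and ROR proteins read, stood in 1740 tested genes, 15.8% of those with a window, and in 16.3% of all windows. Of these 1740 genes 4.83% were higher and 3.05% lower.

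All 20 genes tested of the unfolded protein response list had a negative difference, and 10 of them were called lower and 0 higher, against 2.95% and 3.57% of all genes. The list was chosen with earlier results of these data known, so these counts are a description. Their median log2 difference was -0.280, against -0.00432 for all genes. Manf, a secreted ER stress protein, had levels of 9.28, 9.62 and 10.02 in numbers 4 to 6 and 10.35, 10.66 and 11.07 in numbers 1 to 3. Every sample numbered 4 to 6 was below every one numbered 1 to 3 (-1.06 ± 0.12, adjusted p 0.000162). Creld2 ran at 7.22, 7.55 and 7.82 in numbers 4 to 6 and 7.93, 8.67 and 9.48 in numbers 1 to 3, also apart, and was 2.09-fold lower (-1.06 ± 0.18, adjusted p 0.00179).

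The chaperone gene Hspa5 had levels of 10.70, 11.17 and 11.44 in numbers 4 to 6 and 11.49, 11.86 and 12.32 in numbers 1 to 3, with no overlap. Its difference was -0.76 ± 0.12 (adjusted p 0.00161), and at -0.81, -0.88 and -0.58 on the control, Western-style and quercetin diets it was negative in each. Of its helpers, Dnajb9 stood at -0.52 ± 0.11 (adjusted p 0.00825) and Dnajb11 at -0.39 ± 0.10 (adjusted p 0.0288). The other folding genes were Hsp90b1 (-0.43, adjusted p 0.00782), Pdia6 (-0.36, adjusted p 0.0401) and the lectin chaperone Calr (-0.27, adjusted p 0.0473). Among the degradation genes, Syvn1 had levels of 8.22, 8.49 and 8.66 in numbers 4 to 6 and 8.69, 9.26 and 10.00 in numbers 1 to 3 (-0.74 ± 0.15, adjusted p 0.00702), and its partner Sel1l had 8.61, 8.77 and 8.92 in numbers 4 to 6 and 9.01, 9.20 and 9.73 in numbers 1 to 3 (-0.51 ± 0.09, adjusted p 0.00302). Both were apart between the sets. Pdia6 had a second probe set of the opposite sign (0.08), and on the mean of its probe sets it stood at -0.14 and was not called (adjusted p 0.521). Without any 1 sample, 7 to 10 of the 20 were called lower. Pdia6 and Calr each lost their call without any 1 of 13 samples (adjusted p up to 0.0988 and 0.0982, without control sample 4-5) and Dnajb11 without any 1 of 6 (up to 0.0699, without control 6). With the values as deposited 6 of the list were called, with the actin ratio as a covariate 7, and among the Western-style groups alone 3.

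**Figure D4:**
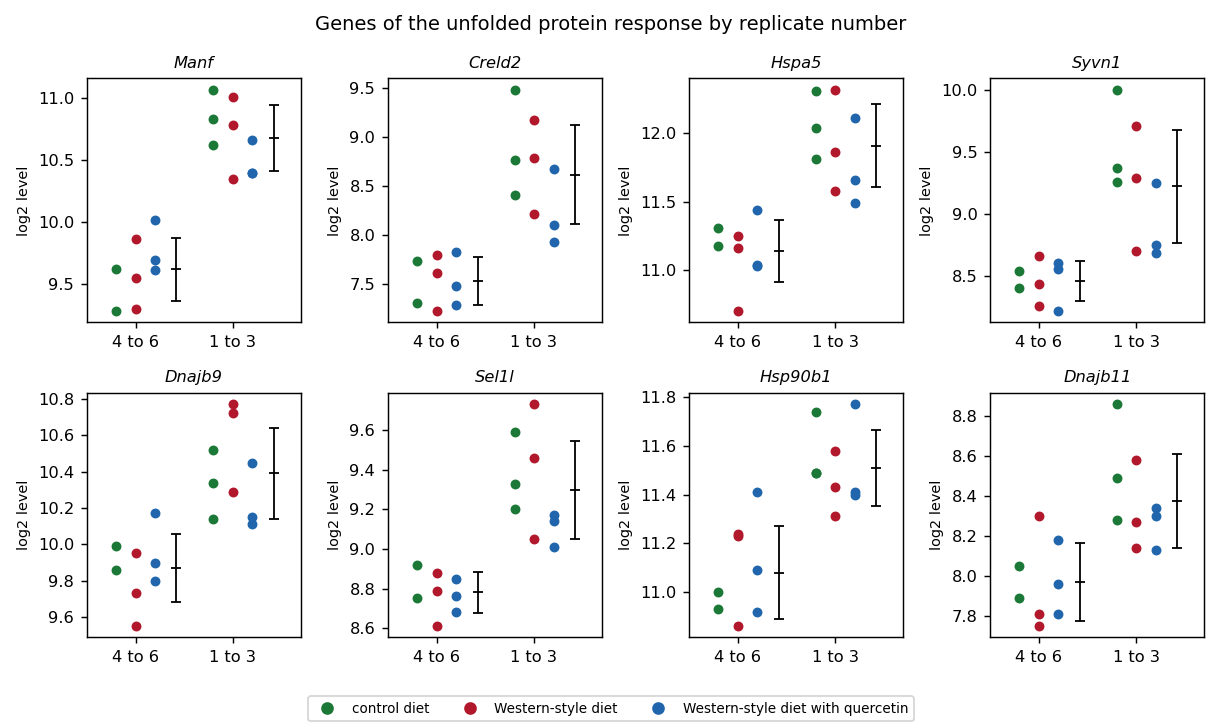
Log2 level of 8 genes of the unfolded protein response in every sample, numbers 4 to 6 on the left and numbers 1 to 3 on the right of each panel, coloured by diet, with the mean and SD of each set in black (n = 8 and n = 9). Every panel is lower in numbers 4 to 6, and the sets of Manf, Creld2, Hspa5, Syvn1 and Sel1l do not overlap.

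The letters of the ER stress response element stood in 39 of the 32851 promoter windows (0.119%) and in 16 of the 10981 tested genes with a window. Of those 16 genes, 8 were called lower (50%) and 0 higher, beside 2.95% and 3.57% of all genes tested, with or without a window. Among the 18 list members with a window, 9 held the letters, and 6 of these 9 were called lower, namely Calr, Creld2, Hsp90b1, Hspa5, Pdia6 and Syvn1. The 2 lower genes with the letters outside the list were Alg12 and Ero1b, named here after their values were seen. Hsp90b1 held the letters at 2 places, and in Syvn1 the element ended 25 bases before the start site. A match of letters is a description of the window only. Leaving out any 1 sample gave 5 to 9 lower genes with the letters, the actin ratio as a covariate gave 5, and the values as deposited gave 4.

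The shares of all genes to set beside the counts in the lists that follow are 3.57% called higher and 2.95% called lower. Of 23 tested genes of fatty acid oxidation and PPAR-alpha targets, 6 were higher and 0 lower, with a list median of 0.00249. Cpt1a, which controls entry of fatty acids into mitochondria, had 10.97, 11.09 and 11.23 in numbers 4 to 6 and 10.07, 10.58 and 10.85 in numbers 1 to 3, with no overlap (0.54 ± 0.09, adjusted p 0.0014). Acot1, a cytosolic acyl-CoA thioesterase, did not overlap either (0.69 ± 0.09, adjusted p 0.000298). Acot3 was given above, Ppara itself differed by 0.50 ± 0.13 (adjusted p 0.0299), and the other called genes were Creb3l3 (0.23, adjusted p 0.0429) and Angptl4 (0.34, adjusted p 0.0459), each of which lost its call without any 1 of 13 samples (up to 0.0999 without control 6 and 0.0880 without Western 5). On the mean of its probe sets Angptl4 differed by 0.20 (adjusted p 0.113). Without control sample 4-5, control 6, Western 3, Western 6 or quercetin sample 2 or 6, 3 of the list were called. Ppara lost its call without any 1 of 6 samples (adjusted p up to 0.0780, without control sample 4-5).

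Of 19 tested genes of fatty acid synthesis, 4 were lower and 0 higher, against 2.95% and 3.57% of all genes, with a list median of -0.184. In the control and Western-style groups 7 were lower, but 0 were in the Western-style groups alone or in the control and quercetin groups, and with the actin ratio as a covariate 1 was. Without control sample 4-5, control 6, Western 3 or Western 6 the count was 1, without Western 4 or 5 or quercetin sample 1 it was 2, and with the values as deposited it was 0. Fasn, the fatty acid synthase, had levels of 10.10, 11.21 and 11.88 in numbers 4 to 6 and 11.40, 11.79 and 12.29 in numbers 1 to 3. The difference was -0.70 ± 0.18 (adjusted p 0.0269), with -1.29, -0.91 and -0.02 on the control, Western-style and quercetin diets, and its call was lost without any 1 of 4 samples (up to 0.0570, without control 6). Acaca, which makes malonyl-CoA, differed by -0.47 ± 0.10 (adjusted p 0.00932). The others were Gpam, which starts glycerolipid synthesis (-0.44, adjusted p 0.0361), and Pnpla5 (-0.59, adjusted p 0.0459), and both lost their calls without any 1 of 9 and 14 samples (up to 0.0859 and 0.108, without control 6). Of 20 genes of cholesterol synthesis and uptake, 3 were lower and 0 higher, Mvd (-0.70, adjusted p 0.017), Sc5d (-0.32, adjusted p 0.0109) and Hmgcs1 (-0.50, adjusted p 0.0409), and with the values as deposited 1 was. Hmgcs1 had 4 of 5 probe sets lower and lost its call without any 1 of 14 samples (up to 0.0932, without control 6) and on the mean of its probe sets (0.0506), where Sc5d stood at -0.64. Of 19 genes of the lipid droplet, 3 were higher and 1 lower. Fitm2, a fat storage protein, differed by 0.40 ± 0.08 (adjusted p 0.00727), and the lipase inhibitor G0s2 by 0.64 ± 0.17 (adjusted p 0.0348, lost without any 1 of 7 samples, up to 0.0898 without control sample 4-5). The lipase Pnpla2 differed by 0.35 ± 0.08 (adjusted p 0.0122) on its brightest of 2 probe sets and by -0.0083 on their mean, and the droplet coat gene Plin3 by -0.32 ± 0.08 (adjusted p 0.0254, up to 0.0627 without control 6).

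Of 21 bile acid genes, 3 were higher and 2 lower, against 3.57% and 2.95% of all genes. Besides Cyp7a1, the bile acid receptor FXR (Nr1h4) differed by 0.36 ± 0.07 (adjusted p 0.00502) and the sterol exporter Abcg5 by 0.32 (adjusted p 0.0301, lost without any 1 of 7 samples, up to 0.0737 without control 6). The bile salt export pump Abcb11 had 10.21, 10.36 and 10.50 in numbers 4 to 6 and 10.44, 10.68 and 10.87 in numbers 1 to 3 (-0.29 ± 0.06, adjusted p 0.0127), and Fgfr4, the receptor for the gut hormone FGF15, differed by -0.31 ± 0.08 (adjusted p 0.0225, 0.0570 without control sample 4-5, and -0.15 with an adjusted p of 0.165 on the mean of its probe sets). Of 17 genes of gluconeogenesis and insulin signalling, 6 were higher and 2 lower. Gys2, the liver glycogen synthase, had 9.80, 9.93 and 10.40 in numbers 4 to 6 and 9.27, 9.62 and 9.78 in numbers 1 to 3, with no overlap (0.45 ± 0.09, adjusted p 0.00692). Slc2a2, the liver glucose transporter, differed by 0.30 ± 0.06 (adjusted p 0.00641), Foxo1 by 0.37 ± 0.07 (adjusted p 0.00722) and Pck1, the gluconeogenic carboxykinase, by 0.40 ± 0.10 (adjusted p 0.0222, 0.0608 on the mean of its probe sets). The pseudokinase Trib3, an inhibitor of AKT, was lower (-0.37 ± 0.09, adjusted p 0.0231, 0.0553 without control 6).

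In the antioxidant list 4 of 21 were lower and 0 higher, against 2.95% and 3.57% of all genes. Gclc, the catalytic subunit of glutathione synthesis, had 10.54, 10.72 and 10.99 in numbers 4 to 6 and 11.17, 11.35 and 11.57 in numbers 1 to 3, with no overlap (-0.62 ± 0.07, adjusted p 0.000118). Gstm4, a glutathione transferase, differed by -0.38 ± 0.09 (adjusted p 0.0169). Srxn1 (-0.49, adjusted p 0.0399, 3 of 4 probe sets lower) and the thioredoxin reductase Txnrd1 (-0.28, adjusted p 0.0371) lost their calls without any 1 of 13 and 9 samples (up to 0.0776 and 0.0727, without Western 3) and on the mean of their probe sets (0.0558 and 0.0707). Of 17 heat shock genes, 3 were lower and 1 higher. Their median log2 difference was -0.293, against -0.00432 for all genes, and 14 of the 17 differences were negative and 3 positive. The chaperone Hsph1 differed by -0.76 ± 0.19 (adjusted p 0.0249, up to 0.0612 without control sample 4-5), the co-chaperone Stip1 by -0.42 ± 0.10 (adjusted p 0.0206, up to 0.0550 without control sample 4-5) and Chordc1 by -0.50 ± 0.11 (adjusted p 0.0157). The cold-inducible RNA-binding protein gene Cirbp went the other way, at 5.96, 6.13 and 6.66 in numbers 4 to 6 and 5.04, 5.58 and 5.99 in numbers 1 to 3 (0.69 ± 0.13, adjusted p 0.00472). Of 16 amino acid response genes, 3 were lower and 0 higher, the phosphatase of serine synthesis Psph (-0.44, adjusted p 0.00293), the stress factor CHOP (Ddit3, -0.45, adjusted p 0.021, 0.0688 on the mean of its probe sets) and Trib3.

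The counts of called members in the next lists, 1 or 2 each, stand beside 3.57% of all genes called higher. The xenobiotic receptors PXR (Nr1i2, 0.41, adjusted p 0.00419) and CAR (Nr1i3, 0.52, adjusted p 0.0202, 0.0526 without control 6) were the 2 of 23 drug metabolism genes called, both higher. Of 15 hypoxia genes, 1 was higher, the mitophagy receptor Bnip3, at 10.93, 11.09 and 11.25 in numbers 4 to 6 and 10.35, 10.59 and 10.86 in numbers 1 to 3 with no overlap (0.51 ± 0.08, adjusted p 0.00139). Of 18 genes of the urea cycle and amino acid catabolism, 2 were higher, the proline dehydrogenase Prodh (0.54, adjusted p 0.00455) and Asl, of the urea cycle (0.37, adjusted p 0.0264, up to 0.0527 without quercetin sample 2). No member passed, at an adjusted p under 0.05 by limma, among 35 genes of oxidative phosphorylation, 20 of ribosomal proteins, 21 of the interferon response, 17 of inflammatory signalling, 19 of fibrosis and 14 of the growth hormone axis. At an unadjusted p under 0.05 the counts in these lists were, in the same order, 0, 1, 6, 5, 3 and 2, beside 2977 of all 13645 genes. Of the 19 fibrosis genes 18 had a negative difference and 1 a positive one (median -0.162). In inflammatory signalling 14 of 17 were negative and 3 positive (median -0.155). Oxidative phosphorylation had 12 negative and 23 positive (median 0.0103), and all genes 6989 negative and 6656 positive.

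**Figure D5:**
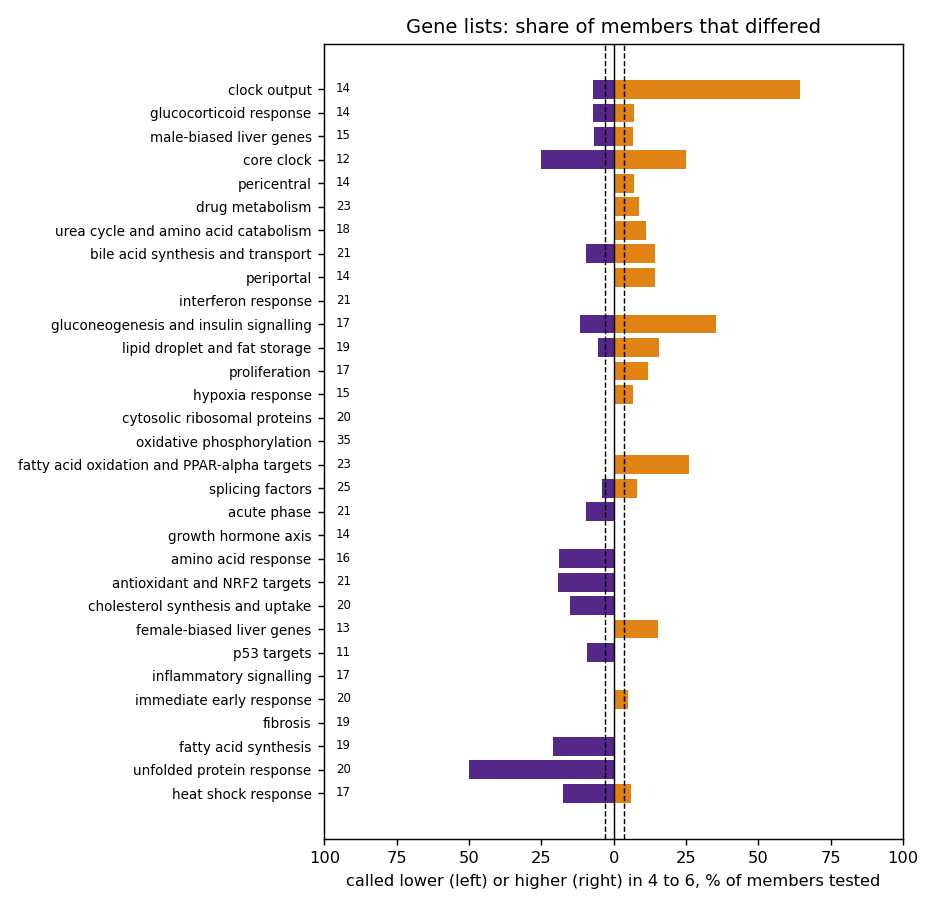
Share of the tested members of 31 gene lists called lower (bars to the left) and higher (bars to the right) in numbers 4 to 6, in percent, ordered by median difference, with the number tested at the left edge. The dashed lines mark the shares of all genes, 2.95% lower and 3.57% higher. The longest bars are clock output to the right (9 of 14) and the unfolded protein response to the left (10 of 20). The lists were chosen with earlier results of these data known.

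In whole liver, fewer cells of a type and less RNA per cell cannot be told apart. The summed level of 11 hepatocyte markers ran from 65900 to 69800 in numbers 4 to 6 and from 64900 to 71100 in numbers 1 to 3, in linear units after normalization, and 0 of the 11 were called (0 at an unadjusted p under 0.05). Summed levels of 22 macrophage markers were 6150 to 13300 in numbers 4 to 6 and 7070 to 20700 in numbers 1 to 3, with 0 called (4 at an unadjusted p under 0.05). The 10 neutrophil markers with a probe set summed to 122 to 226 in numbers 4 to 6 and 186 to 435 in numbers 1 to 3, and 0 of the 8 tested were called (2 at an unadjusted p under 0.05). These ranges pool the diets. With diet as a covariate, 19 of 22 macrophage (median -0.186), 8 of 8 neutrophil (-0.213), 10 of 11 stellate cell (-0.117) and 3 of 11 hepatocyte markers (0.024) had negative differences. Of the 11 stellate cell markers 2 were called lower, and of 4 erythroid markers 1, beside 2.95% of all genes lower and 3.57% higher. Called markers were the stellate cell genes Acta2 (-0.38, adjusted p 0.0134, its other probe set positive) and Ngfr (-0.43, adjusted p 0.0397, up to 0.0932 without control 6), both lower, and the transferrin receptor Tfrc of the erythroid list (-0.65, adjusted p 0.0126), which many cells express. On the mean of all probe sets none of these was called, with adjusted p of 0.252 for Acta2, 0.0869 for Ngfr and 0.111 for Tfrc. The part of cell composition in the differences was not tested.

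Whether the difference depended on diet was tested with the interaction of number set and diet in limma. It was called in 3 of 13645 genes (0.022%), with 973 at an unadjusted p under 0.05. Zbtb16, a transcription factor that answers to glucocorticoids, differed by -0.62 on the control diet, -0.25 on the Western-style diet and 1.65 with quercetin (adjusted p 0.0148). Tff3, a secreted trefoil peptide, differed by 1.67 on the control diet, -0.46 on the Western-style diet and -0.33 with quercetin (adjusted p 0.0148). Fam102a was called both for the interaction (adjusted p 0.0354) and for the set (0.68 ± 0.12, adjusted p 0.00346), with 1.32, 0.64 and 0.20 on the 3 diets in the same order. Leaving out single samples ended each interaction call, with adjusted p up to 0.0573 for Zbtb16 without control 2, 0.158 for Tff3 without control sample 4-5 and 0.192 for Fam102a without control 6.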

How the data were processed

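RNA of 18 mouse livers was read on Affymetrix arrays. The deposited table holds a linear intensity for each of 45101 probe sets per array, from 0.0118 to 12320. How the authors derived and scaled them is not given in the sources used here. Array medians ran from 12.7 to 23.2 and trimmed means from 66.7 to 102, and precision is limited by the number of arrays.

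Values were taken as log2(value + 16) and quantile normalized, so that folds of dim genes are understated. Besides 64 controls, 34945 probe sets had a single gene symbol, 932 several and 9160 none. Each of 18193 genes was read by its brightest such probe set, and the 4548 dimmest (mean log2 level below 4.56, the lowest 25%) were dropped. Other core clock genes are not reported here.

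Number sets were compared with limma 3.58.1 in R 4.3.3 (lmFit with diet and set, eBayes, Benjamini-Hochberg adjustment, two-sided, threshold 0.05). Within-diet contrasts and the interaction came from 6 means with 1 shared spread estimate. Array measures had exact permutation tests. Same-numbered samples of different diets did not deviate together (mean correlation 0.0439 over 14 pairs), so the numbers were not used as pairs. Promoters were searched in Python 3.11.15 and figures drawn with matplotlib 3.10.9.

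The number sets, gene lists and marker lists were chosen with earlier results of these data known. Named genes are the 15 largest increases and decreases among called genes with 1 sign in all diets, up to 4 members per list by p, the clock genes and the 5 smallest interaction p-values. Hsp90b1, Pdia6, Calr, Dnajb9, Dnajb11, Syvn1, Creb3l3, Angptl4 and Abcg5 were named outside that rule after their values were seen. Of the genes so named, a part is given. Alternatives covered normalization, pseudocount, dim genes, probe sets, covariates, a replicate block and left-out samples or diets.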

Additional observations from a re-analysis of the deposited data

Results flagged for a closer look

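Among 98 named genes and 9 array measures, tested within either number set after diet differences were removed, 10 of 214 tests found the highest or lowest sample set apart by a gap larger than Dixon's critical share of the range. Chance gives about 1 in 20. In numbers 4 to 6 these were Elovl3, whose quercetin sample 6 was highest by a gap of 0.662 of the range, and Srxn1, whose quercetin sample 6 was lowest (0.614). In numbers 1 to 3, Western 2 was highest for Nrep (0.685), Western 3 for Abcg5 (0.552) and control 3 for Acta2 (0.519). Control 1 was lowest for Creb3l3 (0.813), Bhlhe40 (0.61) and G0s2 (0.572), control 3 for Gys2 (0.55) and quercetin sample 1 for Nfil3 (0.508).

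The difference between number sets differed between diets by the interaction test of limma in Zbtb16 (adjusted p 0.0148), Tff3 (adjusted p 0.0148) and Fam102a (adjusted p 0.0354). The difference of Zbtb16 was positive with quercetin and negative on the other diets, that of Tff3 was positive on the control diet and negative on the other diets, and that of Fam102a was positive on all 3 diets.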

How the results depend on the processing

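With the values as deposited, 432 genes were called (268 higher, 164 lower), 134, 2 and 38 within the control, Western-style and quercetin diets, 0 for the interaction, and 6 of the unfolded protein response list. With medians centred, 177 were lower and 156 were called within the control diet. Within the Western-style diet alone the calls were 0 with a pseudocount of 1, without the filter on dim genes and for the mean of probe sets, 28 with a pseudocount of 64 and 21 with the filter at the median. With quercetin the same changes of pseudocount gave 44 and 239, and the stricter filter 213. The interaction gave 0, 7 and 8 under these, and 1 for the mean of probe sets. With control 4 and 5 as separate samples the calls were 733 on the control diet, 137 with quercetin and 10 for the interaction. The Western-style groups alone gave 146 genes (86 higher, 60 lower), 3 lower genes of the unfolded protein response and 5 higher clock output genes. Control and Western-style diets gave 347 (175 higher, 172 lower) with 5 clock output genes, and control and quercetin diets, a pairing added after the data were seen, 313 (169 higher, 144 lower) with 6 of the unfolded protein response. Within single diets the counts were 289 (158 higher, 131 lower), 6 (2 and 4) and 76 (52 and 24) on the control, Western-style and quercetin diets, with 2, 1 and 0 lower genes of the unfolded protein response, and 0 and 3 higher clock output genes on the Western-style and quercetin diets. These subsets hold fewer samples, and elsewhere the cause was not tested.

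Leaving out 1 sample gave 536 to 951 called genes (294 to 504 higher, 242 to 457 lower), 40 to 316, 0 to 8 and 15 to 103 within the control, Western-style and quercetin diets, and 0 to 7 for the interaction. The array measures that changed sign had differences of -1.21 to 4.089 (principal component 3), -2.493 to 0.5739 (component 5) and -0.002458 to 0.01804 (log2 Gapdh ratio), and none of them passed. Among single genes, Pnpla2 turned to -0.008251 on the mean of its probe sets and Acta2 to 0.09314 without probe sets shared between genes. Cry1 turned to -0.1127 with the control and Western-style diets and to -0.6145 on the control diet, and Bhlhe40 to -0.1719 with quercetin. Under a replicate block by number (consensus correlation -0.0143) 943 genes were called, 514 higher and 429 lower. Correlations of same-numbered samples ran from -0.364 to 0.26. With the actin 3′ to 5′ ratio as a covariate 676 genes were called. Among them were 7 lower genes of the unfolded protein response and 8 higher clock output genes. Of the called genes named here, 93 were followed over 37 alternatives and gave 3438 values. Of these values 2744 kept direction and call, 692 kept direction only and 2 turned, those of Pnpla2 and Acta2. Alg12, Ero1b and the called genes named only with the families below were not followed. Each of the 93 genes lost its call in at least 1 alternative, so 0 were called in all of them. The alternatives include single diets, which hold few samples.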

Other observations

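Families that were picked after their values had been seen are given as a description, with no test of a family. Of all genes 2.95% were called lower and 3.57% higher. Of 11 tubulin genes tested 5 were called lower in numbers 4 to 6 and 0 higher, with a median log2 difference of -0.270. Besides Tubb2a and Tubb4b these were Tuba4a (-0.63, adjusted p 0.00128), Tubb5 (-0.59, adjusted p 0.00286) and Tubb6 (-0.51, adjusted p 0.00579) by limma. Of the secretory pathway that feeds from the endoplasmic reticulum, 4 of 22 translocation and signal peptidase genes, 3 of 10 oligosaccharyltransferase genes and 5 of 18 COPII and p24 cargo genes were lower, with 1 of these last higher. Spcs2, a signal peptidase subunit, differed by -0.61 (adjusted p 0.000306) and Ostc, an oligosaccharyltransferase subunit, by -0.56 (adjusted p 0.00203). The cargo receptor Tmed3 differed by -0.63 (adjusted p 0.00105), and Sec23a was the gene that rose (0.21, adjusted p 0.0361).

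Of 12 genes of NAD synthesis 4 were called higher and 1 lower, beside 3.57% and 2.95% of all genes. Nampt, the rate-limiting enzyme of the salvage route, differed by 0.79 (adjusted p 0.000118), next to Nmrk1, and Afmid, of the route from tryptophan, by 0.65 (adjusted p 0.0012). Kynu, of the same tryptophan route, was lower (-0.40, adjusted p 0.0105). Of 11 acyl-CoA thioesterases 4 were higher and 0 lower, with Acot4 at 0.50 (adjusted p 0.00673) and Acot12 at 0.20 (adjusted p 0.0387) besides Acot1 and Acot3. Of 18 cytosolic aminoacyl-tRNA synthetases 2 were lower, Tars and Cars (-0.56, adjusted p 0.00133), beside 2.95% of all genes.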
